A study of Mus musculus with 6 samples.

Results

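Hepatic transcripts of 9 genes that carry or answer the insulin signal were examined: Insr, Irs1, Irs2, Akt2, Foxo1, Pck1, Fbp1, G6pc and Igfbp1. They were chosen by name as the insulin receptor, its adaptors, a downstream kinase, a transcription factor under the control of that kinase, and genes regulated by insulin, and they are 9 of the 22087 genes that had a probe set annotated to exactly 1 gene symbol. The brightest such probe set stood for each gene. All 9 had one, with 11 probe sets in all, since Irs1 and Foxo1 had 2 each, and none was lost to a filter.

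The livers came from STAM mice, a model of diabetic steatohepatitis in C57BL/6J males that received 200 μg of streptozotocin, a toxin of the insulin-producing beta cells, at 2 days of age and a high-fat chow (60 kcal%) that began at 4 weeks of age. Telmisartan, a blocker of the angiotensin II receptor, was given by mouth at 5 mg/kg per day in 0.5% carboxymethyl cellulose from 6 to 12 weeks of age, and the vehicle mice received no telmisartan. The study picked 3 of the 7 mice of each group at random for expression arrays, 1 array per mouse, so that every p-value measures the spread between these few mice. Both groups carried the streptozotocin and the fatty diet, and neither a mouse without them nor an insulin measurement was analysed here; whether the mice were fasted before the livers were taken is not given in the sources used here.

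Insulin binds a receptor kinase on the hepatocyte, which phosphorylates the adaptors Irs1 and Irs2; these recruit PI3-kinase, and the lipid it makes activates AKT, of which Akt2 is the main form in liver. AKT phosphorylates Foxo1 and keeps it out of the nucleus. When insulin is low, Foxo1 stays in the nucleus and drives genes of glucose production such as G6pc and Pck1, together with Igfbp1 and Irs2 itself.

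The promoter windows of the members are shown first, because Irs2, Igfbp1 and G6pc belong to the textbook targets of Foxo1. The RefSeq windows (GRCm38.p6) ran from 250 bases before to 50 bases after the start of the gene and were given for 8 of the 9 members. The window of Foxo1 is printed as well, because Foxo1 was the other member past the thresholds used below. The windows are Irs2 (chr8:11008880-11009179, minus strand), Igfbp1 (chr11:7197537-7197836, plus strand), G6pc (chr11:101367466-101367765, plus strand) and Foxo1 (chr3:52268087-52268386, plus strand). Capitals mark CAAAACA or its reverse complement TGTTTTG, the core of the insulin response sequence.
Irs2: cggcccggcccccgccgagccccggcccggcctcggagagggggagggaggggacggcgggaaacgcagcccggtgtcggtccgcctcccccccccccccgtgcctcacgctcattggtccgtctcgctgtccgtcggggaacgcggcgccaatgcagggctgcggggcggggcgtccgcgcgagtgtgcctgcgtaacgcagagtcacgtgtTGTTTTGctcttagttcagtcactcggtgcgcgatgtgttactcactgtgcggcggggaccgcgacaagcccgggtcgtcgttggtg
Igfbp1: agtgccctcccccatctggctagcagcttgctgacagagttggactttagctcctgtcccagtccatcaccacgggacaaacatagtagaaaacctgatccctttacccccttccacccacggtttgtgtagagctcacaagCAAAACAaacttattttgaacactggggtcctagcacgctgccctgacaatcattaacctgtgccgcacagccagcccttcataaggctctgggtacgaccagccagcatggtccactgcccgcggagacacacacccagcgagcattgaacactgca
G6pc: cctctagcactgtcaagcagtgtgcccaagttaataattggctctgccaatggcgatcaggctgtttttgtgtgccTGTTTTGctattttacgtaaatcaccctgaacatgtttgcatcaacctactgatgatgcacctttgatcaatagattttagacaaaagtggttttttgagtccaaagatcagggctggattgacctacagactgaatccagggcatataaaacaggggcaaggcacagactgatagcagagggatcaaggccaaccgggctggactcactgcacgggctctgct
Foxo1: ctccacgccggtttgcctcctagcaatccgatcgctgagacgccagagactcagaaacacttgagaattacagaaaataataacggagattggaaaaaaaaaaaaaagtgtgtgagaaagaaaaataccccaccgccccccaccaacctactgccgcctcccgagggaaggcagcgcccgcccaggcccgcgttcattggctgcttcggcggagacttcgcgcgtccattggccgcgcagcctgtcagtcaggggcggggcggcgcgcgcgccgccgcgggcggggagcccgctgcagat

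On either strand, CAAAACA was found in the windows of 4 of the 8 members. It lay 37 bases before the start of Irs2, 108 before that of Igfbp1, 174 before that of G6pc, and 111 and 32 before that of Irs1. The windows of Akt2, Foxo1, Pck1 and Fbp1 did not hold it, although Pck1 is also named above as a gene that Foxo1 drives. Akt2 had 4 windows, all of which were searched, and the other members with a window had 1 each. Of all 32851 windows of this length, 6.28% held it. The Foxo consensus GTAAACA (reverse TGTTTAC), present in 3.65% of all windows, and the full cyclic AMP response element TGACGTCA (1.79%) were in none of the members' windows. The shorter cyclic AMP response half-site TGACG (reverse CGTCA, 20.8% of all windows) was found in the windows of Irs1, Akt2 and Pck1, and in Pck1 it lay 90 bases before the start. The E-box CACGTG (7.15%) was in those of Irs1 and Irs2. In Irs1 the E-box overlapped both the half-site and the first CAAAACA match, while in Irs2 it ended before the CAAAACA match began. TATAAA (13.6%) was in the window of G6pc, 29 bases before its start. These matches describe letters in a window and say nothing of which factor was bound.

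Of the 9 members, 1 was lower in the telmisartan-treated mice, 1 was higher and 7 were not past both thresholds. A gene was called past the thresholds where its unadjusted limma p was under 0.05 and its fold 1.2 or more, which are the limits that the study set. The adaptor Irs2 was the lower one and the transcription factor Foxo1 the higher one. Over all 22087 genes, 3.50% were lower and 3.08% higher by the same rule. The ranges of the groups did not overlap for Irs2, Foxo1 and Igfbp1, which makes 3 of the 9 members beside 12.4% of all genes. The median difference of the members was -0.05 on the log2 scale, against -0.00059 for all genes. No member, and none of the 23094 probe sets tested, had a limma adjusted p under 0.05, while 1617 of these had an unadjusted p under 0.05. The lowest adjusted p of a member was 0.696, for Irs2.

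**Figure D1:**
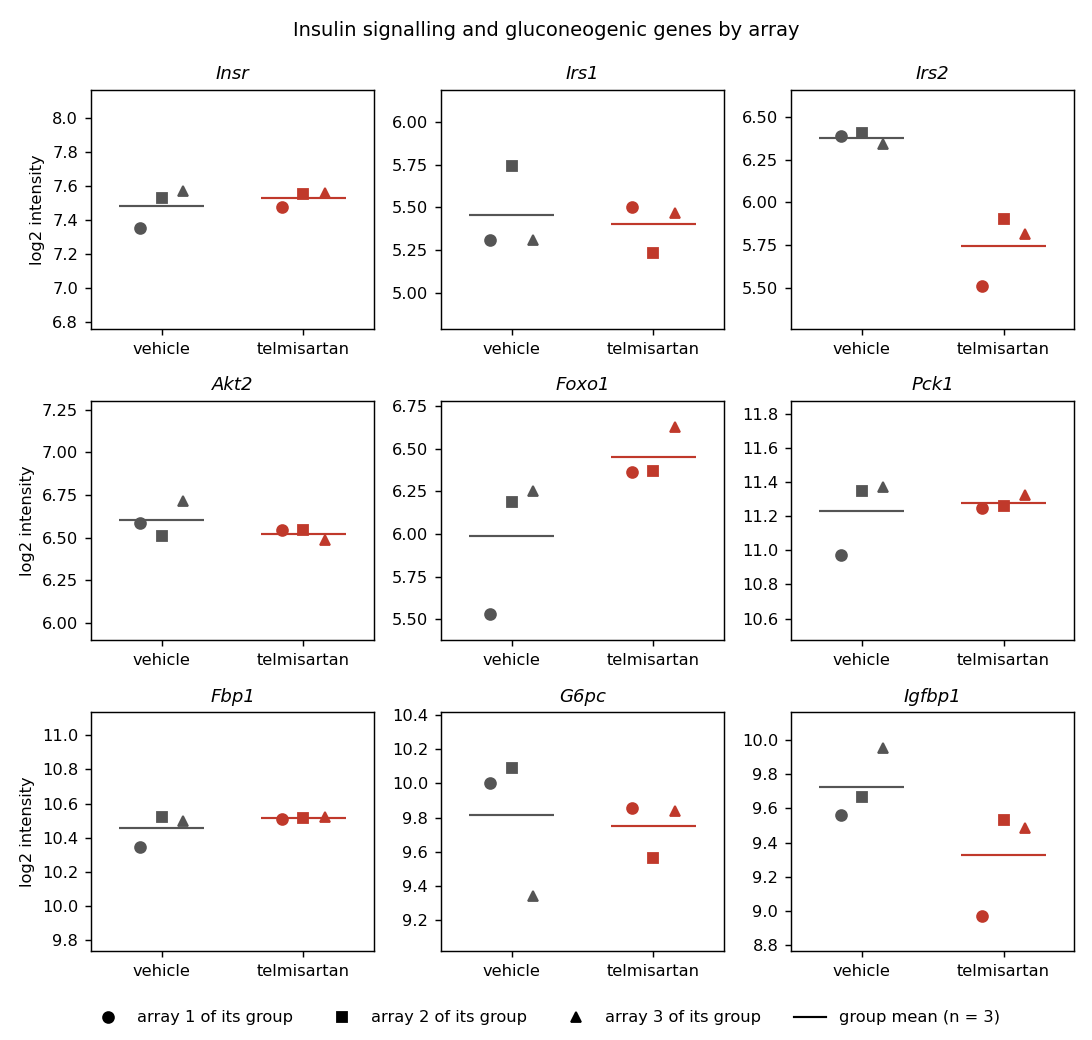
Log2 intensity of each of the 9 genes on the 3 vehicle arrays (grey) and the 3 telmisartan arrays (red); symbols number the arrays within their group, lines are group means, and every panel spans the same range. The groups do not overlap for Irs2, Foxo1 and Igfbp1, and vehicle 1 is the lowest array for Insr, Foxo1, Pck1 and Fbp1.

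Vehicle 1 stood somewhat apart from the other arrays, although every pair of arrays correlated at 0.985 or more across probe sets (Pearson). It gave the lowest value of the 6 arrays for 4 of the 9 members, namely Insr, Foxo1, Pck1 and Fbp1. Hepatocyte markers such as Alb, Ttr and Apoa1 were bright on every array, and the mean log2 intensity of the 8 markers was 11.8 on each vehicle array and 11.8 to 11.9 on the telmisartan arrays. The livers were measured as bulk tissue, in which fewer cells of a type and less RNA per cell cannot be told apart.

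The insulin receptor Insr (probe set 17507057) was at 7.36, 7.53 and 7.57 in log2 intensity on the vehicle arrays and at 7.47, 7.55 and 7.56 on the telmisartan arrays. The groups overlapped, with vehicle 1 the lowest and vehicle 3 the highest of all. Their means were 7.48 ± 0.11 (SD, n = 3) and 7.53 ± 0.05 (SD, n = 3), a difference of 0.04 with a 95% interval from -0.20 to 0.28 (limma p of 0.692). In ratios the interval ran from 0.872 to 1.22, so that a change of receptor mRNA beyond about that size in either direction lay outside it.

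Irs1, the first of the adaptors that the receptor phosphorylates, gave log2 intensities of 5.31, 5.74 and 5.31 with vehicle and 5.50, 5.23 and 5.46 with telmisartan (probe set 17224878). Vehicle 2 was the highest of the 6 arrays and telmisartan 2 the lowest, so that the groups lay across each other. The equal values of vehicle 1 and vehicle 3 are as deposited, and 16.6% of the probe sets tested had an equal value on 2 or more arrays. The difference was -0.05 (SE 0.15, 95% interval -0.39 to 0.28, limma p of 0.724). A second and much dimmer probe set of Irs1, at means of 2.43 and 2.44, differed by 0.01 (limma p of 0.954).

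Irs2, the adaptor that hepatocytes make more of when insulin is low, was the member with the clearest difference. Its intensities on the deposited linear scale were 83.8, 84.8 and 81.2 with vehicle and 45.5, 59.9 and 56.3 with telmisartan (probe set 17507374), or 6.39, 6.41 and 6.34 against 5.51, 5.90 and 5.82 in log2. The vehicle arrays were nearly alike, with an SD of 0.03, whereas the telmisartan arrays were spread by an SD of 0.21, with telmisartan 1 the lowest. The ratio of telmisartan to vehicle was 0.643 by the means of the log2 values, with a 95% interval from 0.527 to 0.785. It had an unadjusted limma p of 0.000839, the 26th smallest of the 23094 probe sets tested, with an adjusted p of 0.696. The methods' t-test also placed Irs2 past the thresholds, as 1 lower member of the 9, beside 1.75% of all genes lower by that test. The exact permutation test gave p = 0.1 (two-sided), the smallest that 3 arrays against 3 allow. The study had picked Irs2 out of these same samples, so that its direction here is not independent evidence.

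Irs2 stayed past the thresholds in all 15 alternatives, some of which changed only its p and left its difference as it was. With each array left out in turn the difference lay between -0.72, without telmisartan 2, and -0.52, without telmisartan 1, and the highest limma p was 0.00436. A further probe set annotated to both Irs2 and 9530052E02Rik was dim, at 3.02 with vehicle and 2.80 with telmisartan, and its difference of -0.22 was past neither threshold (limma p of 0.243). Within each array, the log2 ratio of Insr to Irs2 was 0.97, 1.12 and 1.22 with vehicle and 1.97, 1.65 and 1.74 with telmisartan. The ratios of the groups did not overlap, by a difference of 0.68 (exact permutation test, p = 0.1, adjusted p = 0.5 over 5 pairs of members). The log2 ratio of Irs2 to Irs1, by contrast, was 1.08, 0.67 and 1.03 with vehicle and 0.01, 0.67 and 0.35 with telmisartan. There telmisartan 2 reached the lowest vehicle array, and the difference of -0.58 had an exact permutation p of 0.2 (adjusted p = 0.5).

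**Figure D2:**
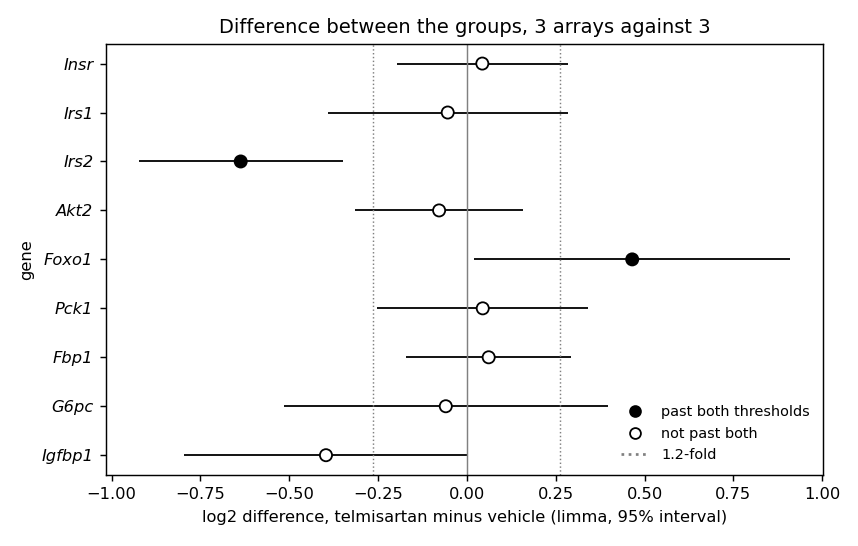
Difference in log2 intensity between 3 telmisartan and 3 vehicle arrays for each gene (points) with the 95% interval from limma (lines); filled points were past both thresholds and dotted lines mark a 1.2-fold difference. The interval of Irs2 lies wholly below the lower dotted line, that of Foxo1 begins at 0.02, and that of Igfbp1 ends at 0.0039.

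Akt2, the kinase that relays the signal from the adaptors, was at 6.59, 6.51 and 6.71 with vehicle and at 6.54, 6.54 and 6.49 with telmisartan in log2 intensity (probe set 17475640). Telmisartan 3 was the lowest and vehicle 3 the highest, and the other 4 arrays lay between them. The difference of -0.08 (SE 0.10, 95% interval -0.31 to 0.16) was past neither threshold (limma p of 0.469).

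Foxo1, the transcription factor that AKT holds in check, was at 5.53, 6.19 and 6.25 with vehicle and at 6.37, 6.37 and 6.63 with telmisartan in log2 intensity (probe set 17397497). The intensities on the linear scale were 46.2, 72.8 and 76.2 against 82.5, 82.6 and 98.9. All telmisartan arrays were above all vehicle arrays, but vehicle 1 lay far below its group, and the gap between vehicle 3 and telmisartan 1 was narrow. The group means were 5.99 ± 0.40 (SD, n = 3) and 6.45 ± 0.15 (SD, n = 3). Foxo1 was thus higher by 0.47 (SE 0.19, 95% interval 0.02 to 0.91, limma p of 0.0422, adjusted p = 0.703), a ratio of 1.38. By the methods' t-test the unadjusted p was 0.132, and by the exact permutation test p = 0.1.

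The call of Foxo1 rested on single arrays. Without vehicle 1 the difference was 0.24 (limma p of 0.105), and the call was also lost without telmisartan 1 (0.51, limma p of 0.0648), telmisartan 2 (0.51, limma p of 0.0684) or telmisartan 3 (0.38, limma p of 0.135). It held without vehicle 2 and without vehicle 3. The dimmer probe set of Foxo1 gave 3.95, 4.53 and 4.57 with vehicle and 4.60, 4.37 and 4.78 with telmisartan. It, too, was lowest on vehicle 1, but its groups overlapped and its difference of 0.24 was past neither threshold (limma p of 0.241). A list of 12 glucocorticoid-induced genes had a mean log2 intensity of 6.21 on vehicle 1 against 6.85 to 7.39 on the other arrays. Vehicle 1 was the lowest array for Fkbp5, Tsc22d3, Per1, Mt1 and Mt2 (Mt2 at 6.02 against 9.27 to 10.8) but the highest for Tat. On vehicle 1 the mean of 16 clock genes was 5.00 against 5.21 to 5.38 on the other arrays, but these genes went both ways. Among them vehicle 1 was lowest for Per1, Per3, Cry2, Nr1d1, Nr1d2, Dbp, Tef, Ciart and Bhlhe41. It was highest for Arntl, Clock, Cry1 and Nfil3. Within its own group, telmisartan 1 was likewise lowest for Per1, Per3, Nr1d1, Nr1d2, Dbp, Tef and Ciart, and highest for Arntl, Clock and Cry1. For Cry2, Bhlhe41 and Nfil3 it did not follow vehicle 1. The part of the glucocorticoid-induced and clock genes in the low Foxo1 value of vehicle 1 was not tested. Nor was their part in the low Irs2 and Igfbp1 values of telmisartan 1.

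**Figure D3:**
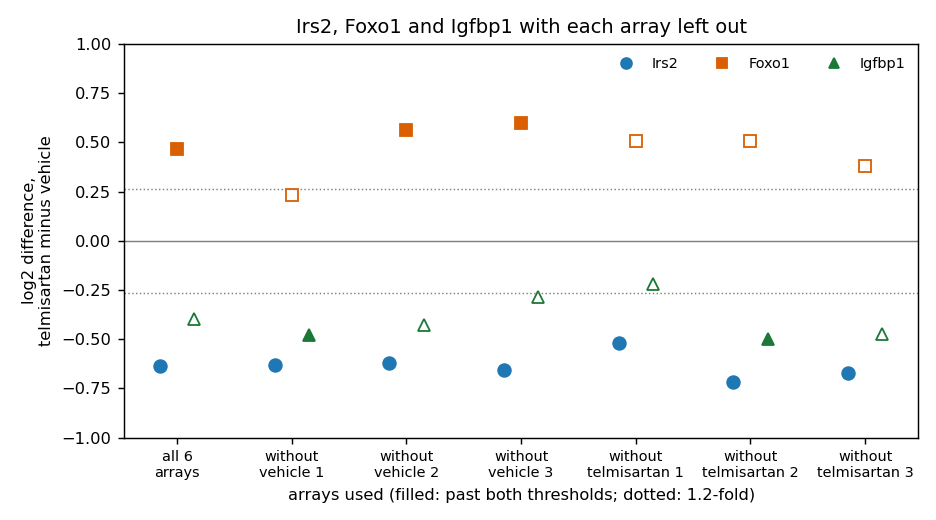
Difference in log2 intensity (telmisartan minus vehicle) of Irs2, Foxo1 and Igfbp1 with all 6 arrays and with each array left out; filled symbols were past both thresholds and dotted lines mark a 1.2-fold difference. Irs2 is filled throughout, whereas Foxo1 falls to 0.24 without vehicle 1 and Igfbp1 shrinks to -0.22 without telmisartan 1.

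The enzymes of glucose production were high on every array, and none was past the thresholds. Pck1, the phosphoenolpyruvate carboxykinase of the cytosol and an early enzyme of the pathway, was at 10.98, 11.35 and 11.37 with vehicle and at 11.25, 11.26 and 11.33 with telmisartan in log2 intensity (probe set 17380222). The telmisartan arrays lay inside the range of the vehicle arrays, and vehicle 1 was again the lowest. The difference was 0.04 (SE 0.13, limma p of 0.740), with a 95% interval of the ratio from 0.839 to 1.27.

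Fbp1, the fructose bisphosphatase that acts further along, was at 10.35, 10.52 and 10.50 with vehicle and at 10.51, 10.52 and 10.52 with telmisartan (probe set 17293557). All telmisartan arrays and vehicle 2 were nearly equal, and vehicle 1 alone was clearly lower. The difference of 0.06 (SE 0.10, 95% interval of the ratio 0.889 to 1.22, limma p of 0.561) fell to 0.0061 when vehicle 1 was left out.

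G6pc, the catalytic subunit of glucose-6-phosphatase, which releases free glucose, varied more between mice. Its intensities on the linear scale were 1027, 1091 and 649 with vehicle and 927, 757 and 914 with telmisartan (probe set 17256707). Here vehicle 3, and not vehicle 1, was the low array, and the telmisartan arrays lay between it and the other vehicle arrays. The log2 difference was -0.06 (SE 0.20, 95% interval -0.52 to 0.40, limma p of 0.772). Without vehicle 3 it became -0.29 (limma p of 0.0671), which was not past both thresholds. G6pc had the widest interval of the 3 enzymes.

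Within each array, the log2 ratio of G6pc to Pck1 was -0.97, -1.26 and -2.03 with vehicle and -1.39, -1.69 and -1.49 with telmisartan. The ratios overlapped, with an exact permutation p of 0.8 for a difference of -0.10. The ratio of Fbp1 to Pck1 differed by 0.02 (exact permutation p = 0.9). Neither difference between the enzymes was larger than the spread between mice.

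Igfbp1, a binding protein of insulin-like growth factors that the liver secretes when insulin is low, was at 9.56, 9.67 and 9.95 with vehicle and at 8.97, 9.53 and 9.49 with telmisartan in log2 intensity (probe set 17247208). On the linear scale the intensities were 754, 813 and 991 against 502, 740 and 717. All telmisartan arrays were below all vehicle arrays, telmisartan 1 by a wide margin and telmisartan 2 by a small one. The group means were 9.73 ± 0.20 (SD, n = 3) and 9.33 ± 0.31 (SD, n = 3), and the difference of -0.40 (SE 0.18) had a 95% interval from -0.80 to 0.0039. The limma p was 0.0518 (adjusted p = 0.709), the p of the methods' t-test 0.138 and that of the exact permutation test 0.1, so that Igfbp1 was not past the thresholds.

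Igfbp1 was close to the limit, and 6 of its 15 alternatives put it past the thresholds. Leaving out vehicle 1 or telmisartan 2 gave differences of -0.48 and -0.50 (limma p of 0.0428 and 0.0381). Leaving out telmisartan 1 gave -0.22 (limma p of 0.183) and leaving out vehicle 3 gave -0.28 (limma p of 0.174). Telmisartan 1 was also the lowest array for Irs2, the other member that was lower in every telmisartan mouse. Relative to G6pc within each array, Igfbp1 differed by -0.34 between the groups, with overlapping ratios (exact permutation p = 0.6).

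Around the members, 9 lists of the pathway held 174 further genes, of which 9 (5.17%) were higher and 11 (6.32%) were lower in the telmisartan-treated mice, beside 3.08% and 3.50% of all genes. Their median difference was -0.06. The lists were chosen with earlier results of these data known, so that their shares are not independent evidence. They were described by these counts and not tested as sets. By the methods' t-test, 4 of the further genes were higher and 5 were lower. Of the 20 genes, 7 stayed past the thresholds with each array left out in turn, namely Pdk4, Gpt, Slc37a4, Sik1, Nr4a1, Onecut1 and Elovl6, and the other 13 were lost without at least 1 array.

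Upstream in the pathway few genes were past the thresholds. Of 14 receptors, growth factors and binding proteins, 0 were higher and 1 was lower, Igfbp7 at -0.64 (limma p of 0.0271), while Igf1, the main growth factor from the liver, differed by 0.01. Without telmisartan 2, Igfbp7 was at -0.35 and not called (limma p of 0.0630). Of 13 adaptors, Irs2 alone was past the thresholds, and the other 12 differed by between -0.15 and 0.14, with Shc1 at -0.10 and Grb2 at 0.13. Of 22 genes of PI3-kinase and AKT, 1 was lower, the AKT substrate Tsc2 at -0.28 (limma p of 0.0313). Their median was -0.13, with the regulatory subunit Pik3r1 at -0.12 and Akt1 at -0.24, neither past the thresholds.

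Of 19 inhibitors of insulin signalling, 1 was higher and 2 were lower. A difference below 0 was found for 16 of the 19, and likewise for 18 of the 22 genes of PI3-kinase and AKT. The share of all genes below 0 is not given here, so these counts are not read as a trait of the lists. Among all probe sets with a mean log2 intensity of at least 4, 502 were past the thresholds as lower and 274 as higher. The receptor-binding adaptor Grb14 was higher by 0.28 (limma p of 0.0362), and the lipid phosphatase Inppl1 at -0.35 and the AKT phosphatase Phlpp2 at -0.42 were lower (limma p of 0.0253 and 0.0200). The median of the 19 was -0.13, against -0.00059 for all genes. Ptpn1, the phosphatase that acts on the receptor itself, gave -0.23 with a limma p of 0.0447, a fold under 1.2, and Grb10 and Trib3 gave -0.26 and 0.13 and were past neither threshold. Each of the 3 called inhibitors was lost without at least 1 array.

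Among 25 Foxo factors and genes known as their targets, 4 were higher and 2 were lower, including the members Foxo1 and Irs2. Foxo3, the relative of Foxo1, was higher by 0.32 (limma p of 0.0382), and the ubiquitin ligase Fbxo32 and the apolipoprotein Apoc3 were higher by 0.32 and 0.28. Without vehicle 1, none of the 25 was higher, and without vehicle 2 Fbxo32 was at 0.21 (limma p of 0.158). Pdk4, a kinase that shuts off pyruvate oxidation in fasting, was lower by the largest amount of these lists, at 6.46, 7.92 and 8.49 with vehicle and at 6.54, 5.98 and 5.41 with telmisartan. Its difference of -1.65 was past the thresholds (limma p of 0.00857) although vehicle 1 lay below telmisartan 1. By the methods' t-test the p of Pdk4 was 0.074, which did not pass. The coactivator Ppargc1a was at 0.25 (limma p of 0.419).

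Of 26 genes of gluconeogenesis and glucose output, 2 were higher and 0 were lower. Slc37a4, the transporter that brings glucose 6-phosphate to the enzyme encoded by G6pc, was at 7.26, 7.41 and 7.32 with vehicle and at 7.76, 7.72 and 7.71 with telmisartan. The groups were well apart, with a difference of 0.40 (SE 0.10, limma p of 0.00332, and p of 0.00108 by the methods' t-test). Gpt, an alanine aminotransferase that feeds alanine carbon into the pathway, was higher by 0.45 (limma p of 0.0109). Pyruvate carboxylase, Pcx, was at -0.06 and the glucose transporter Slc2a2 at 0.06, so that these and the 3 enzymes among the members were past neither threshold.

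Of 34 regulators of gluconeogenesis, 2 were higher and 3 were lower. Onecut1, a transcription factor of hepatocytes, differed by -1.30, and Nr4a1, an orphan nuclear receptor induced by cyclic AMP, by -1.05 (limma p of 0.000299 and 0.00230). The study had named Onecut1 as lower in these same samples, so that its direction here is not independent evidence. Sik1, a kinase that restrains the coactivators of CREB, was at 6.39, 6.64 and 6.36 with vehicle and at 5.80, 5.84 and 5.74 with telmisartan, a difference of -0.67 (limma p of 0.000308). The pioneer factor Foxa3 and the coactivator Ppargc1b were higher by 0.43 and 0.42, the latter by 0.22 and not called without telmisartan 3 (limma p of 0.144), and the glucagon receptor Gcgr was at 0.20 (limma p of 0.0883).

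Of 21 genes of glycolysis and lipogenesis that insulin induces, 0 were higher and 2 were lower, the desaturase Scd1 at -0.77 (limma p of 0.0431) and the fatty acid elongase Elovl6 at -0.60 (limma p of 0.00768). Without telmisartan 1 the difference of Scd1 shrank to -0.39 and was not called (limma p of 0.130). Srebf1, the transcription factor of this program, was at 0.13 and past neither threshold. Of 18 glycogen genes, the liver phosphorylase Pygl was higher by 0.33 and the brain phosphorylase Pygb was lower, at -0.35 (limma p of 0.0162 and 0.0335).

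**Figure D4:**
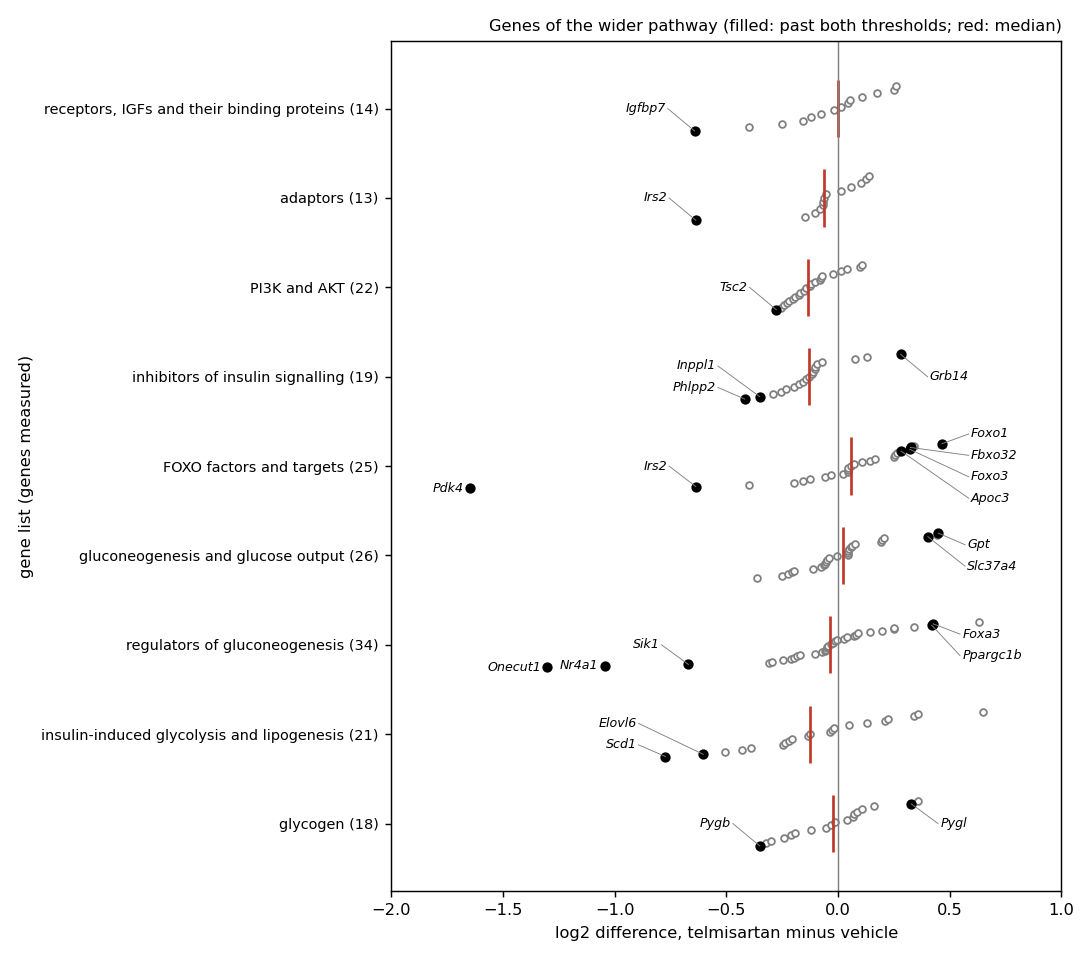
Difference in log2 intensity (telmisartan minus vehicle) of each gene in the 9 lists of the wider pathway, with the number of genes measured in parentheses; filled points were past both thresholds and are named, and red bars are medians. Most genes lie within a narrow band around 0, and the largest differences are those of Pdk4 at -1.65, Onecut1 at -1.30 and Nr4a1 at -1.05.

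Some markers of other liver cells were lower in the telmisartan-treated mice. All 6 markers of sinusoidal endothelial cells were lower, with a median difference of -0.56, and their summed intensity was 562 to 687 with vehicle and 348 to 531 with telmisartan. Of 7 Kupffer cell markers 3 were lower (median -0.28, summed intensity 674 to 1034 against 646 to 709), and of 7 stellate markers 3 were lower (median -0.33, 584 to 736 against 407 to 569). None of 8 hepatocyte markers was past the thresholds, with a median of 0.0024 and a summed intensity of 30570 to 31270 with vehicle and 29980 to 31820 with telmisartan. With 1 array left out, 2 to 5 of the endothelial markers were called, with the low count of 2 reached without vehicle 3, telmisartan 2 or telmisartan 3, and the median stayed between -0.72 and -0.41. The Kupffer count fell to 1 without vehicle 2, vehicle 3, telmisartan 1 or telmisartan 3, and the stellate count fell to 1 without vehicle 2 or telmisartan 2. Without vehicle 1 the Kupffer count rose to 4 and the stellate count to 5, and without telmisartan 1 the stellate count rose to 4. The methods' t-test called 2 of the 6 endothelial, 1 of the 7 Kupffer and 1 of the 7 stellate markers. Telmisartan 1, which had the lowest Irs2, had the highest endothelial level of its group, a mean log2 intensity of 6.37 against 5.80 and 5.92 on the other telmisartan arrays. The part of these cells in the lower Irs2, Igfbp1 and Igfbp7 was not tested. Markers of cholangiocytes, lymphocytes, neutrophils, adipocytes and skeletal muscle had no gene past the thresholds, and of 5 pancreas markers only the dim Prss2 was (0.35).

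**Figure D5:**
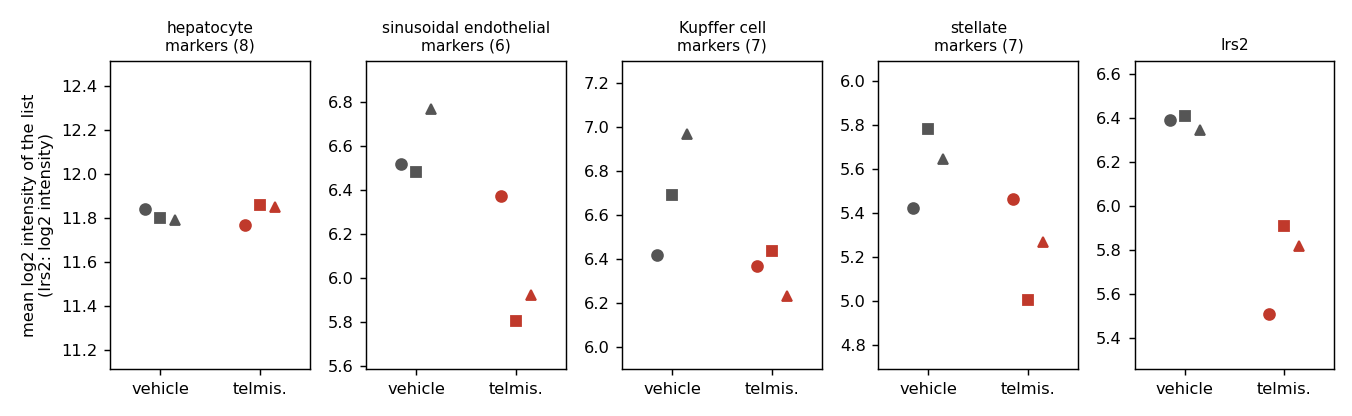
Mean log2 intensity of the markers of 4 liver cell types (number of markers in parentheses) and the log2 intensity of Irs2 on the 3 vehicle arrays (grey) and the 3 telmisartan arrays (red); circles, squares and triangles are arrays 1, 2 and 3 of a group, and every panel spans the same range. Hepatocyte markers are level, endothelial markers are lower on every telmisartan array, and telmisartan 1 is the lowest array for Irs2 but the highest telmisartan array for the endothelial markers.

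The genes whose pattern over the 6 arrays was most like that of Irs2, among 5604 genes with a mean log2 intensity of at least 5, were Dhrs4, Plk3 and Tm9sf2 (Pearson r of 0.979, 0.972 and 0.971). Their own differences were -0.21, -1.53 and -0.15, and 61 genes reached an r of 0.9. Those most like Foxo1 were Sbf2, Mrpl42 and Ube2e3 (r of 0.989, 0.988 and 0.986), with differences of 0.08, 0.26 and 0.11, and 131 genes reached an r of 0.9. With 6 arrays that share their groups, such values are a description of these mice alone.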

How the data were processed

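RNA from frozen livers was measured on Affymetrix Mouse Gene 2.0 ST arrays. RMA, a background correction, quantile scaling and summary of probes, was run by the authors on all 6 arrays, and their deposited table holds linear intensities of 31873 probe sets. The program version was not given in the sources used here. Before any test, the log2 of each intensity was taken without a pseudocount, and 0 columns of other samples were present.

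Exactly 1 gene symbol was listed for 23094 probe sets, which were all fitted with limma 3.58.1 (R 4.3.3; lmFit and eBayes), group as the only term, with Benjamini-Hochberg adjustment over all of them. The call combined an unadjusted p under 0.05 with a fold of at least 1.2, as in the study's methods, whose t-test was run as an alternative. Single ratios were tested by exact permutation over arrays. The scripts were tested on simulated data. Other alternatives were another variance prior, a replicate block, other scalings and filters, and each array left out.

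The members and the gene lists were chosen with earlier results of these data known. Named were the 9 members, up to 4 called genes per list and direction, a set of pathway genes given whatever their values (1 of which is not reported here), and the 3 genes most like each called member. Motifs were searched in the RefSeq promoter windows. The number of arrays limits the precision. Probe sets with several symbols (except 1 of Irs2), and the blood, tissue and cell measurements of the study, were not analysed here.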

Additional observations from a re-analysis of the deposited data

How the results depend on the processing

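Of 135 results of the members under the alternatives, 122 stayed on their side of the thresholds. The 13 that did not were all of Foxo1 or Igfbp1. Irs2, Foxo1 and Igfbp1 kept their sign in every alternative, as did Akt2 and Fbp1, while the small differences of Insr, Irs1, Pck1 and G6pc changed sign in some. The vehicle and telmisartan arrays share replicate numbers. Over all probe sets tested, deviations of same-numbered arrays correlated at 0.04, -0.02 and 0.03, and the numbers were not taken as pairs in the main fit. Values over all probe sets, many of them dim, cannot show whether some genes shared a factor between same-numbered arrays. Array 1 was the lowest of its group in both groups for Insr, Foxo1, Pck1, Fbp1 and Igfbp1, but not for Irs1, Irs2, Akt2 and G6pc. Whether same-numbered arrays were handled together was not tested. With the replicate block, Igfbp1 (-0.40) had a limma p of 0.0207 and 2 members were lower; it changed no other member's call (Irs2 p of 0.0017, Foxo1 p of 0.0183), and 12 wider genes were higher and 13 lower.

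Igfbp1 also passed with a trended, robust prior (-0.40, p of 0.0385), with arrays centred on their medians (-0.41, p of 0.0435) and with quantile normalization (-0.41, p of 0.0391), each giving 2 lower members. Foxo1 did not pass by the methods' t-test (0.47, p of 0.132), with 16 added to the intensity (0.38, limma p of 0.0629) or as the mean of its probe sets (0.35, limma p of 0.0982), and by the t-test, by the mean of probe sets or at a fold of 1.5, 0 members were higher. With arrays left out, Foxo1 ranged from 0.24 to 0.60 and Igfbp1 from -0.50 to -0.22; 0 to 1 members were higher and 1 to 2 lower, and of the wider genes 5 (without telmisartan 3) to 8 were higher and 7 (without vehicle 3) to 15 lower, against 9 and 11.

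The methods' t-test gave 4 higher and 5 lower wider genes. Over all probe sets, 709 were higher and 803 lower; the t-test gave 339 and 396, a mean log2 intensity of at least 4 gave 274 and 502, a fold of 1.5 gave 69 and 110, and all deposited probe sets gave 1067 higher. The cause was not tested. Phlpp2, Ppargc1b and Fbxo32 had group means under 4, the level of this filter.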
